A study of Mus musculus with 9 samples.

Results

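Transcripts of 10 choroid plexus genes (Ttr, Enpp2, Sostdc1, Kl, Folr1, Prlr, Aqp1, Clic6, Slc4a5 and Otx2) were followed through RNA-seq libraries of dissected mouse striatum. The genes were taken by symbol from a list of choroid plexus markers, mapped from the Ensembl IDs of the count tables, and are 10 of the 54532 gene IDs counted. All 10 passed the filter on low counts. The libraries fall into 3 genotypes with 3 libraries each, all on a C57BL/6J background: mice lacking cGAS (cGAS KO), mice lacking STING (STING KO) and mice with neither deletion (WT). Both deletions were made by CRISPR-Cas9. cGAS is a sensor of cytosolic DNA and STING the receptor of the messenger it makes. Per the series' design, tissue was taken after ischemic stroke. The labels of the single libraries mention no stroke, so whether every library comes from an injured animal is not known here. The sources used here give no hemisphere, no time after stroke, no age of the animals and no deleted exons. Whether the replicates are separate animals is not stated in the labels, so p-values measure only the spread between these libraries.

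The choroid plexus is a fringe of epithelium and vessels that hangs in the brain ventricles and secretes cerebrospinal fluid. Its epithelial cells move water, sodium, bicarbonate, chloride and folate from the blood to the fluid, and release carrier and signalling proteins into it. The lateral ventricle, which holds a large choroid plexus, borders the striatum, but the plexus is not part of the striatum. In bulk tissue, fewer cells of a type and less RNA per cell cannot be told apart.

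Library totals ranged from 14129021 to 21286775 counts. Levels are counts scaled to library size, with TMM factors that correct for differences in composition, in the unit CPM, and 3 counts correspond to 0.141 to 0.212 CPM. The libraries cGAS KO 2, STING KO 2 and WT 3 (numbers are the replicates of the labels) had 2280 to 4723 genes with 1 to 9 counts, against 7096 to 7927 in the other 6, and are called libraries of low complexity. Transcripts of the deleted genes were present in every group, so they are a weak check of the labels: Cgas was at 0.262 to 1.10 CPM in cGAS KO and 1.40 to 3.18 CPM in WT, and Tmem173, which encodes STING, at 1.05 to 2.18 CPM in the libraries lacking STING and 1.34 to 4.06 CPM in WT. Markers of striatal spiny neurons were abundant in every library, with a mean log2 CPM over 12 genes of 7.54 in WT 3 and 8.50 to 8.98 in the other 8.

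Choroid plexus transcripts were high in WT 1 and STING KO 2. These libraries held the highest and second highest level of each of the 10 genes, an order found in 2.22% of the 17821 genes tested. WT 1 was highest for 9 of the 10, where it was highest for 8.86% of all genes tested, and STING KO 2 was highest for Prlr. WT 1 exceeded the median of the other 7 libraries more than 4-fold (log2 difference with a prior count of 2) for 10 of the 10 genes (0.286% of all genes tested). STING KO 2 did so for 8 (2.27% of all genes tested), with Clic6 and Enpp2 below that fold, so both libraries did so for 8 of the 10 (0.174% of all genes tested). The level over that median ranged from 4.27-fold to 59.2-fold in WT 1, with a median of 19.8-fold, and from 2.22-fold to 38.0-fold in STING KO 2, with a median of 7.35-fold. WT 1 and STING KO 2 differ in genotype, and of the pair STING KO 2 is of low complexity and WT 1 is not. The genes were listed with earlier results of these libraries known, so these counts are descriptions.

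**Figure D1:**
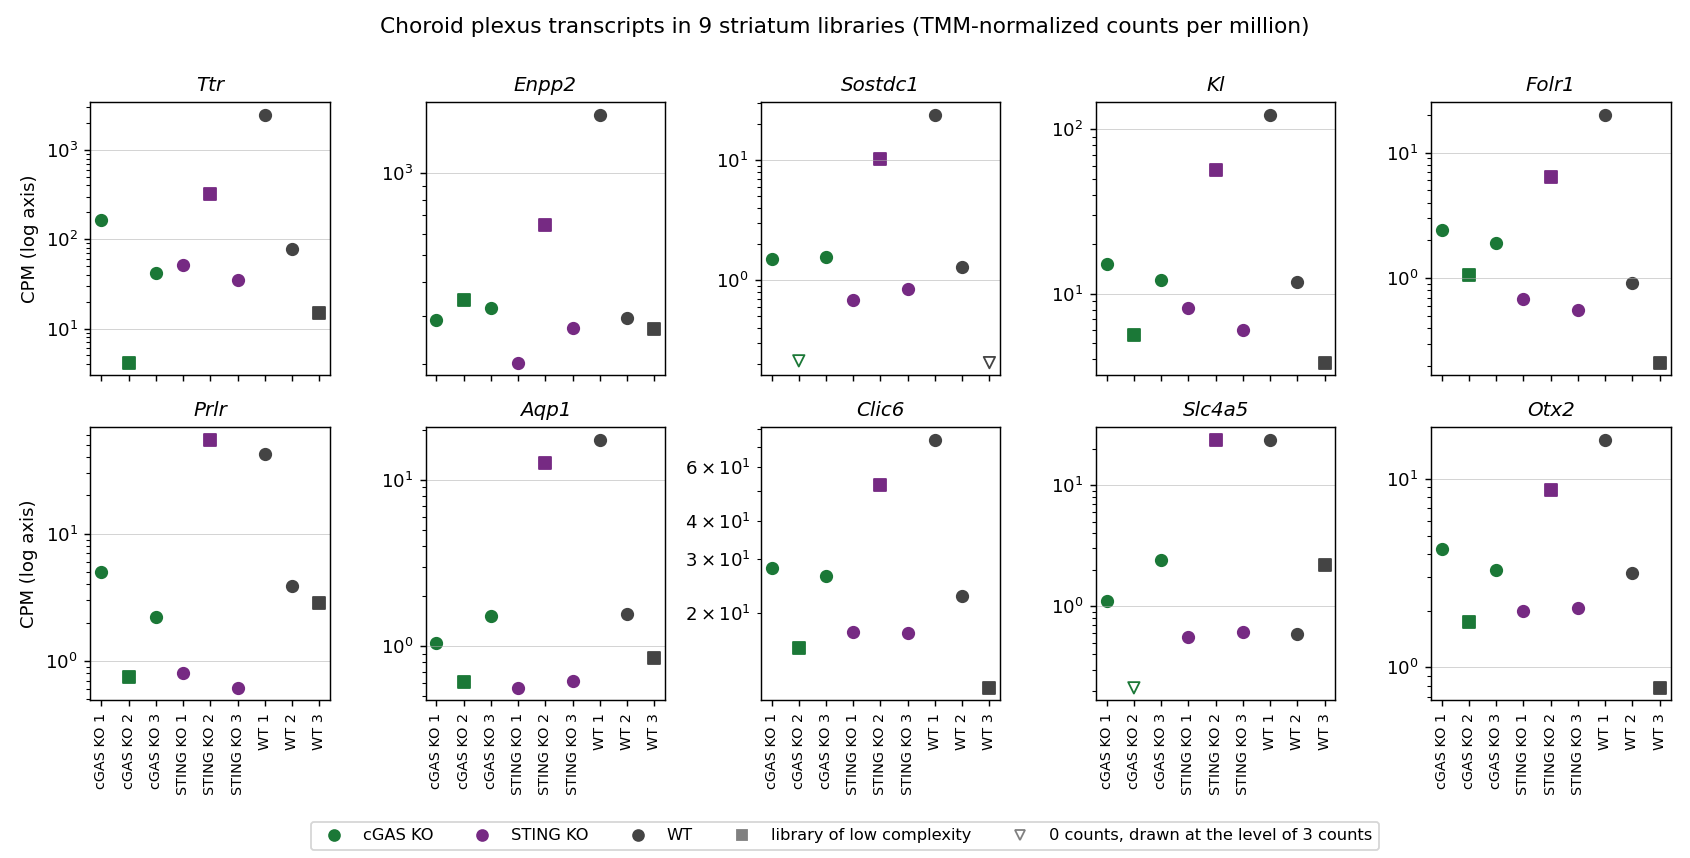
Level of each of the 10 choroid plexus genes in each library (y axis: TMM-normalized CPM on a log scale that differs between panels; x axis: library), coloured by genotype, with squares for the libraries of low complexity and open triangles for 0 counts, drawn at the level of 3 counts. WT 1 and STING KO 2 are the top 2 libraries in each panel, and Prlr is the gene for which STING KO 2 is above WT 1.

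Among the secreted proteins, Ttr had the widest range. Transthyretin, its product, carries thyroid hormone and retinol-binding protein in the cerebrospinal fluid. Ttr (ENSMUSG00000061808, chromosome 18, 20665280 to 20674321, plus strand, GRCm38) had 164, 4.15 and 41.99 CPM in cGAS KO 1, 2 and 3, 51.2, 322 and 35.3 in STING KO 1, 2 and 3, and 2487, 78.6 and 14.8 in WT 1, 2 and 3. WT 1 was 7.73-fold above the next library, STING KO 2, which in turn was 1.96-fold above cGAS KO 1. The lowest levels were those of cGAS KO 2 and WT 3, both of low complexity, so Ttr spanned the range from 55 counts in cGAS KO 2 to 55072 counts in WT 1.

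Enpp2 (ENSMUSG00000022425, chromosome 15, 54838901 to 54952892, minus strand) encodes autotaxin, a secreted enzyme that makes lysophosphatidic acid, and oligodendrocytes make it as well. It had 290.0, 342 and 321 CPM in cGAS KO, 202, 645 and 270.4 in STING KO, and 1641, 294 and 267 in WT, in replicate order. The other 7 libraries lay within 202 to 342 CPM, a narrower spread than that of Ttr, and WT 1 was 5.66-fold above their median. The 12 oligodendrocyte genes had a median log2 difference to the same 7 libraries of 0.55 in WT 1 and -0.14 in STING KO 2. WT 1 was the highest library for 9 of the 12, and for 8.86% of all genes tested. The summed level of the 12 was 18690 CPM in WT 1, 11720 in STING KO 2 and 7894 to 16170 in the other 7. Their part in the Enpp2 level was not tested. A noncoding gene on the opposite strand, Gm26684, shares exon sequence with Enpp2 and had at most 58 counts in a library.

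Sostdc1 (ENSMUSG00000036169, chromosome 12, 36314139 to 36318452, plus strand), a secreted antagonist of BMP signalling, had at most 26 counts outside the 2 high libraries. It had 1.51, 0 and 1.57 CPM in cGAS KO, 0.684, 10.3 and 0.839 in STING KO, and 24.2, 1.29 and 0 in WT. Its 2 libraries with 0 counts, cGAS KO 2 and WT 3, are both of low complexity.

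The 3 receptors followed the same 2 libraries. Kl (ENSMUSG00000058488, chromosome 5, 150952607 to 150993817, plus strand) encodes klotho, a co-receptor for fibroblast growth factor 23. It had 15.1, 5.66 and 12.1 CPM in cGAS KO, 8.21, 56.8 and 6.04 in STING KO, and 123, 11.9 and 3.82 in WT. WT 1 was 8.14-fold and STING KO 2 was 3.77-fold above the highest of the other 7 libraries. Folr1 (ENSMUSG00000001827, chromosome 7, 101858331 to 101870788, minus strand) encodes folate receptor alpha, which carries folate across the epithelium. It had 2.44, 1.06 and 1.90 CPM in cGAS KO, 0.684, 6.41 and 0.559 in STING KO, and 20.1, 0.913 and 0.212 in WT. Both genes were lowest in WT 3, where Folr1 had 3 counts, so WT held the highest and the lowest library.

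Prlr (ENSMUSG00000005268, chromosome 15, 10177238 to 10349180, plus strand), the prolactin receptor, had 4.99, 0.755 and 2.23 CPM in cGAS KO, 0.808, 54.8 and 0.615 in STING KO, and 42.5, 3.87 and 2.83 in WT. Its level in STING KO 2 was 1.29-fold that in WT 1. STING KO 3 was the lowest of the 9 libraries, so the STING KO group held the highest library and the lowest.

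Among the channels and transporters, Aqp1 (ENSMUSG00000004655, chromosome 6, 55336432 to 55348555, plus strand) encodes the water channel of the epithelium's ventricular face. It had 1.04, 0.604 and 1.51 CPM in cGAS KO, 0.560, 12.7 and 0.615 in STING KO, and 17.4, 1.56 and 0.849 in WT. The other 7 libraries held 8 to 29 counts each, against 182 in STING KO 2 and 386 in WT 1. Clic6 (ENSMUSG00000022949, chromosome 16, 92485736 to 92541243, plus strand), of the chloride intracellular channel family, varied least of the 10. It had 27.96, 15.3 and 26.3 CPM in cGAS KO, 17.3, 52.3 and 17.1 in STING KO, and 73.9, 22.7 and 11.3 in WT. Its coefficient of variation over the 9 libraries was 70.1%, against 95.8% to 227% for the other 9 genes.

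Slc4a5 (ENSMUSG00000068323, chromosome 6, 83219828 to 83304945, plus strand) encodes a sodium bicarbonate cotransporter. It had 1.10, 0 and 2.42 CPM in cGAS KO, 0.560, 23.4 and 0.615 in STING KO, and 23.7, 0.591 and 2.19 in WT. WT 1 and STING KO 2 were within 1.01-fold of each other and at least 9.63-fold above each of the other libraries. WT 3, the lowest library for 5 of the 10 genes (for Sostdc1 tied with cGAS KO 2 at 0 counts), was the fourth highest for Slc4a5.

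Otx2 (ENSMUSG00000021848, chromosome 14, 48657677 to 48673819, minus strand) encodes a homeodomain transcription factor that the choroid plexus needs to form. It had 4.24, 1.74 and 3.28 CPM in cGAS KO, 1.99, 8.71 and 2.07 in STING KO, and 16.1, 3.17 and 0.778 in WT. WT 1 was 3.81-fold and STING KO 2 was 2.06-fold above cGAS KO 1, the next library. The antisense gene Otx2os1 had at most 18 counts, and the sources used here give no strand setting for the counting.

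Because the genes were high in the same libraries, their promoters were searched for the letters TAATCC, bound by OTX2 and related homeodomain proteins, and TGTTTAC, bound by forkhead proteins, on both strands. RefSeq windows of 250 bases before to 50 bases after a start site (GRCm38.p6) were found for Kl, Aqp1, Slc4a5, Otx2 and Prlr, 10 windows in all, and for none of Ttr, Enpp2, Sostdc1, Folr1 and Clic6. TAATCC was found in 1 of the 10, a window of Otx2 itself, against 7.06% of 32851 windows of all genes. TGTTTAC was found in 1 of the 10, a window of Prlr, against 3.65% of all windows. Among 39 windows of 33 other choroid plexus genes, 4 held TAATCC and 0 held TGTTTAC. The windows with a match are printed 5′ to 3′ on the strand of the gene, with the match in capitals. The first lies at chr14:48665060-48665359 on the minus strand and reads the motif's reverse complement from 211 bases before the start, and the other lies at chr15:10223656-10223955 on the plus strand and holds its match from 215 bases before the start.
Otx2: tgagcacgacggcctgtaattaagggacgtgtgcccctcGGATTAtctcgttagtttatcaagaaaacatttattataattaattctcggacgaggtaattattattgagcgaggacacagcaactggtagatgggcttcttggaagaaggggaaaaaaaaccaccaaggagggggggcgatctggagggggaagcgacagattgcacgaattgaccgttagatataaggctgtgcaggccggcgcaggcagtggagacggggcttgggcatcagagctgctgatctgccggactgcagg
Prlr: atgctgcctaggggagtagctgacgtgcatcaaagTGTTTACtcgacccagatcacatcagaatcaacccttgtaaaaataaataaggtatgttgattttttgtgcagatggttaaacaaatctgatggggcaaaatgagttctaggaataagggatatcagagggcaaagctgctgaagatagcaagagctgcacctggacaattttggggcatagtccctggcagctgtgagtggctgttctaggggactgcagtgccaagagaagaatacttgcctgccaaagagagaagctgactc
Such a match describes the letters of the window and not the binding of a factor.

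In sum the 10 genes took 0.465% of the counts of WT 1 (exact 95% binomial interval 0.462% to 0.468%), 0.118% of those of STING KO 2 (0.117% to 0.120%) and 0.0293% to 0.0533% of those of the other 7 libraries. These intervals cover counting error only. Enpp2 took 56.6% to 92.1% of that sum in the other 7 libraries. Without Enpp2 the other 9 genes took 0.294% of the counts in WT 1, 0.0544% in STING KO 2 and 0.00275% to 0.0232% elsewhere, with cGAS KO 1 at the top of that range and cGAS KO 2 at the bottom.

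The genes did not keep the same proportions in the 2 high libraries. Ttr made up 55.7% of the 10 genes' counts in WT 1 (95% interval 55.3% to 56.0%) and 27.0% in STING KO 2 (26.3% to 27.7%). In cGAS KO 1 it made up 32.0%, in WT 2 18.8% and in STING KO 1 18.0%. Its share was lowest in cGAS KO 2, at 1.12% (0.844% to 1.45%), and WT 3, at 4.86%, both of low complexity. Prlr took 0.951% in WT 1 and 4.60% in STING KO 2, and Slc4a5 took 0.530% and 1.96%. Per kilobase of exon, the level of Ttr above the median of the other 7 libraries was 2061 RPKM in WT 1 and 236 RPKM in STING KO 2, and that of Enpp2 was 234 and 61.4 RPKM. For the other 8 genes this difference was 2.63 to 14.5 RPKM in WT 1, with Clic6, Sostdc1 and Kl the largest at 14.5, 13.1 and 12.3 RPKM. In STING KO 2 it was 1.57 to 8.94 RPKM for these 8, with Prlr at 3.43 RPKM and Folr1, which was above Prlr in WT 1, at 2.39 RPKM.

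The level in STING KO 2 relative to WT 1 tended to rise with exonic length. That length counts the bases in exons of any annotated transcript of a gene. The relative level was 0.129-fold for Ttr, with 1186 bases the shortest of the 10, and 0.424-fold for Sostdc1 (1781 bases). It was 0.987-fold for Slc4a5 (5804 bases) and 1.29-fold for Prlr, with 15339 bases the longest. The order was not strict. Kl, the second longest at 9328 bases, was at 0.463-fold, and Aqp1, with 2627 bases, at 0.728-fold. Enpp2, close to Slc4a5 in length at 5779 bases, was at 0.393-fold. Ttr and Prlr, at the ends of the length range, also had the lowest and highest relative level. The correlation without them was not computed. Across the 10 genes the log2 difference between these libraries and the log2 exonic length had a Pearson r of 0.72 and a Spearman rho of 0.65, and across 44 choroid plexus genes tested r was 0.45. These correlations are across genes of 1 pair of libraries, and genes are not independent replicates. Over 17813 genes with a length the same r was 0.18. The median log2 difference of all genes was -0.51 below 2000 bases, -0.34 from 2000 to 4000, 0.00 (-0.0048) from 4000 to 8000 and 0.38 above 8000 bases. The 44 choroid plexus genes were at -1.01, -0.81, -0.53 and -0.25 in the same classes, below all genes in each class, with 11, 11, 16 and 6 genes. Against the median of the libraries not of low complexity, STING KO 2, cGAS KO 2 and WT 3 had an r with length of 0.20, 0.21 and 0.26 over all genes, and the other 6 libraries had -0.11 to 0.16. The part of low complexity or length in the proportions of the 10 genes was not tested.

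**Figure D2:**
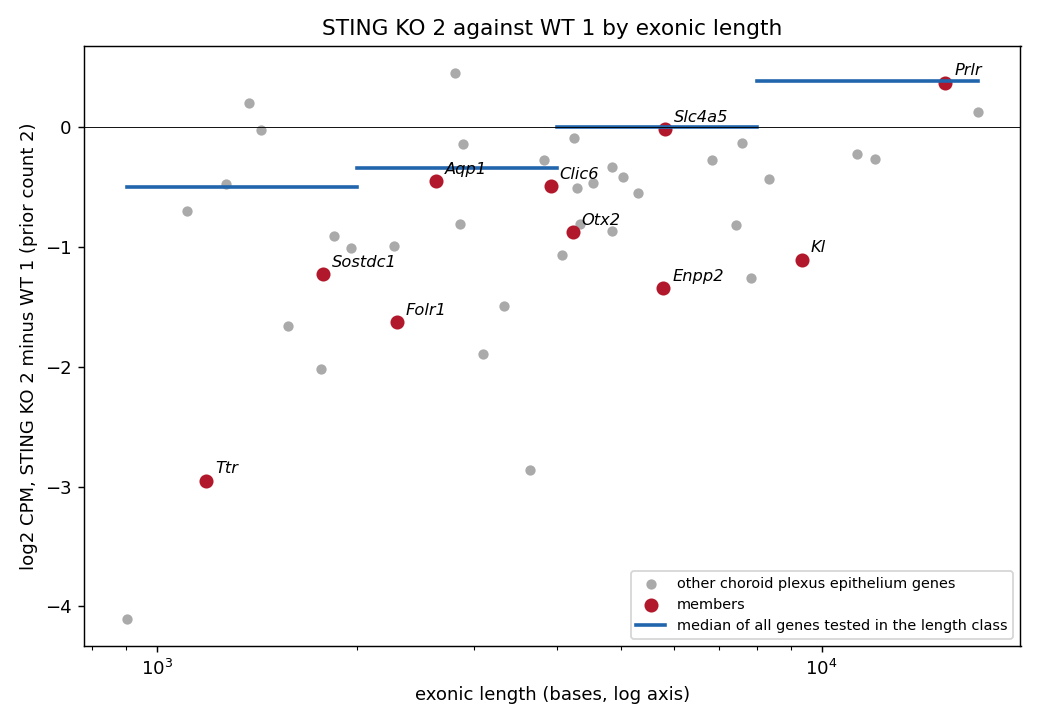
Log2 difference in CPM of STING KO 2 minus WT 1 (y axis, prior count 2) against exonic length in bases (x axis, log scale) for the 10 genes in red and 34 other choroid plexus epithelium genes in grey, with blue lines for the median of all genes tested in each length class. Ttr, at 1186 bases, is the lowest red point and Prlr, at 15339 bases, the highest.

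Other genes of the choroid plexus epithelium were high in the same libraries. Of 36 such genes, a second list that does not hold the 10, 34 passed the filter on low counts. This list too was drawn up with earlier results of these libraries known. Genes at low levels elsewhere can pass the filter partly through WT 1 and STING KO 2, so the counts that follow are descriptions. WT 1 and STING KO 2 were both above the other 7 libraries for 30 of the 34, WT 1 was highest for 31, and WT 1 exceeded the median of the 7 more than 4-fold for 19 and STING KO 2 for 14, the latter 14 being among the 19. The median log2 difference of the 34 was 2.22 in WT 1 and 1.33 in STING KO 2, against 4.18 and 2.85 for the 10 genes and 0.01 and -0.05 for all genes tested. The member with the highest mean CPM, Pcp4l1, was at 431 CPM in WT 1, 136 CPM in STING KO 2 and 70.9 to 397 CPM in the other 7. Ace, angiotensin-converting enzyme, was at 89.1, 60.6 and 23.8 to 46.4 CPM in the same order, and Slc4a2, an anion exchanger, at 88.3, 65.2 and 39.7 to 54.7 CPM. Car12, a carbonic anhydrase, was at 66.2, 60.2 and 26.8 to 49.8 CPM, and Cab39l, a partner of the kinase STK11, at 59.7, 49.2 and 23.5 to 36.2 CPM. Igfbp2, a binding protein of insulin-like growth factors, was at 52.0, 27.6 and 4.60 to 16.8 CPM, Slc31a1, a copper importer, at 50.6, 35.4 and 16.5 to 29.7 CPM, and Sulf1, a heparan sulfatase, at 44.0, 37.6 and 16.1 to 33.4 CPM. Of these 8, Pcp4l1 in STING KO 2 was within the range of the other 7 libraries.

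Of this second list, 4 genes at low levels in the other 7 libraries were chosen after their values were seen. Tmem72, a membrane protein of the choroid plexus, was at 35.9 CPM in WT 1, 39.0 CPM in STING KO 2 and 0.447 to 3.60 CPM in the other 7. Kcnj13, an inward-rectifier potassium channel, was at 11.02, 7.88 and 0 to 0.778 CPM, and the tight junction gene Cldn2 at 19.5, 6.83 and 0 to 1.10 CPM. The short gene 1500015O10Rik was at 29.5 CPM in WT 1, while its 1.60 CPM in STING KO 2 was within the 0 to 4.18 CPM of the other 7. Its exons span 902 bases, the shortest of the 44 choroid plexus genes tested.

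Genes of the tissues around the lateral ventricle differed less in the 2 libraries. The lists compared were of ependymal, meningeal, endothelial, subventricular, spiny neuron, cortical, thalamic, septal, oligodendrocyte and erythrocyte genes. In WT 1, 0 of these genes exceeded the median of the other 7 libraries more than 4-fold, beside 0.286% of all genes tested. In STING KO 2, 1 did so, Igf2 of the meningeal and stromal list, beside 2.27% of all genes tested. These are log2 differences with a prior count of 2. At these shares few genes of the lists would pass, so the counts do not set the lists apart from all genes. By the plain ratio of CPM the septal gene Crhr2 was 4.27-fold the median of the other 7 in WT 1 (4.83 against 1.13 CPM). Its log2 difference was 1.98 at that prior count. WT 1 and STING KO 2 were both above the other 7 libraries for 2 of the 16 meningeal genes, 1 of the 17 ependymal genes and 0 genes of the other 8 lists, beside 2.22% of all genes tested. These were Igf2 at 3.61 and 10.18 CPM, against at most 1.64 CPM in the other 7, Ogn at 7.14 and 6.55 CPM, against at most 5.73 CPM, and the ependymal Tmem212. Igf2, Ogn, Tmem212 and Crhr2 are named after their values were seen. Ependymal cells line the ventricle and carry motile cilia, and 17 of their 18 genes were tested. Their median log2 difference was 0.64 in WT 1 and -0.14 in STING KO 2, with Cfap65 at 22.7, 34.2 and 12.5 to 26.5 CPM in WT 1, STING KO 2 and the other 7, and Tmem231 at 21.2, 16.2 and 10.7 to 20.2 CPM. The 16 meningeal and stromal genes had medians of 0.09 and -0.52, with Col1a2 at 16.0, 11.4 and 9.11 to 17.8 CPM and Slc13a3 at 10.8, 8.78 and 10.3 to 18.6 CPM. The 12 endothelial genes had medians of 0.18 and -0.30, with Slc2a1 at 149, 140.2 and 123 to 162 CPM and Slco1a4 at 116, 105 and 78.0 to 124 CPM. The 12 subventricular progenitor genes had medians of 0.28 and -0.28, with Dcx at 55.5, 108 and 44.99 to 118 CPM and Sox11 at 52.8, 92.0 and 39.3 to 154 CPM.

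The lists of neurons and other cells gave the following values in WT 1 and STING KO 2. Whether striatal cells also express genes of the cortical, thalamic and septal lists was not tested. The 12 spiny neuron genes had median log2 differences of 0.15 and -0.08, with Pde10a at 1939, 2550 and 1560 to 2454 CPM in WT 1, STING KO 2 and the other 7, and Adcy5 at 1912, 2285 and 1512 to 2576 CPM. Pde10a in STING KO 2 was thus above the other 7 libraries, while the median of its list was below 0. The 12 cortical genes had medians of -1.15 and -0.75, with Slc17a7 at 47.3, 198 and 58.0 to 823 CPM and Foxp2 at 81.2, 243 and 67.4 to 231 CPM. Foxp2 went against its list in STING KO 2, where it was above the other 7 libraries. The 10 thalamic and habenular genes tested of 12 had medians of -0.12 and -0.54, with Rora at 59.7, 103 and 43.3 to 164 CPM and Plekhg1 at 39.6, 46.7 and 20.3 to 49.5 CPM. The 10 septal genes had medians of 0.77 and -0.09, with Calb1 at 179, 181 and 123 to 233 CPM and Dgkg at 37.8, 54.1 and 33.3 to 69.0 CPM. The 7 erythrocyte genes tested of 8 had medians of 0.41 and -0.33, with Hba-a1 at 63.9, 33.8 and 20.5 to 96.2 CPM. Mbp, a myelin gene of the oligodendrocyte list, had 5767 CPM in WT 1 and 1984 CPM in STING KO 2, against 1391 to 5021 CPM in the other 7. Medians of the ependymal, septal, oligodendrocyte and erythrocyte lists were thus above 0.4 in WT 1 and below 0 in STING KO 2, unlike the choroid plexus lists.

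**Figure D3:**
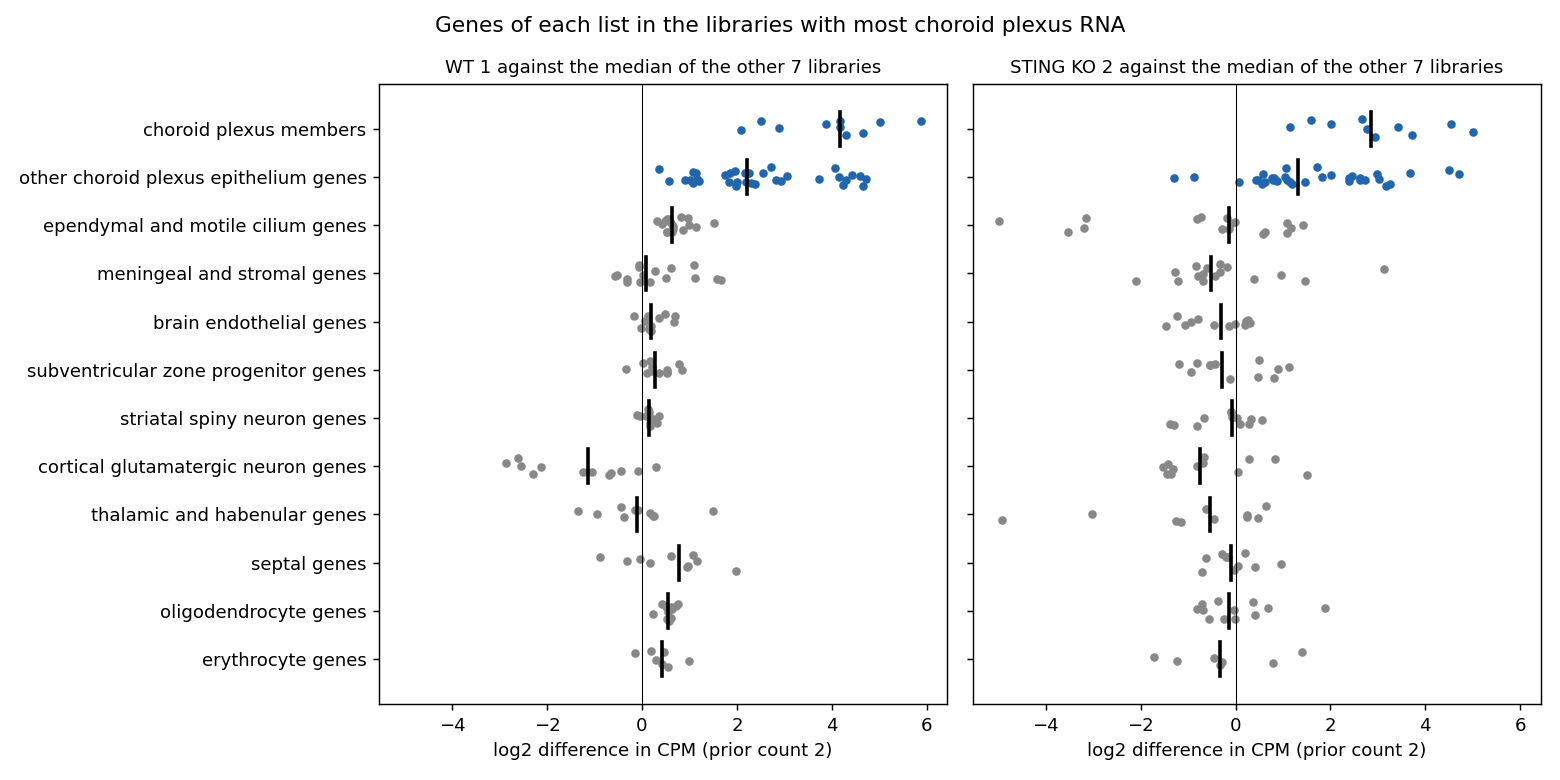
Log2 difference in CPM (x axis, prior count 2) between WT 1 (left) or STING KO 2 (right) and the median of the other 7 libraries, for each tested gene of 12 lists (y axis), with a black bar at each list's median. The 2 choroid plexus lists, in blue, have medians of 4.18 and 2.22 in WT 1 and 2.85 and 1.33 in STING KO 2, and the grey lists have medians between -1.15 and 0.77.

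Over the 9 libraries the 10 genes varied together. Of their 45 pairs, each had a positive Pearson r of log2 CPM, from 0.72 to 0.99 with a median of 0.89. By exact permutation of the pairings, two-sided, 45 of 45 had a Benjamini-Hochberg adjusted p under 0.05 (the largest was 0.0298, for Folr1 and Slc4a5, unadjusted p = 0.0298). Spearman's rho ranged from 0.45 to 1 with a median of 0.78, and 27 of 45 passed by the same exact test. With the 2 libraries farthest from the median of the first gene left out, which were WT 1 and STING KO 2 in 32 of 45 pairs, the median r was 0.63 (-0.20 to 0.98). Since the members were chosen with results known, these values describe the libraries.

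The genes varied together less closely in the other 7 libraries, without WT 1 and STING KO 2. There the median r over the 45 pairs was 0.52, from -0.32 to 0.98, 41 of 45 were positive and 9 of 45 had an adjusted p under 0.05 by exact permutation. Both the genes and the libraries left out were chosen with results known, so these values are descriptions. Leaving out WT 1 alone gave a median of 0.80. The pairs that stayed high were among Kl, Clic6, Otx2, Sostdc1 and Folr1. Kl and Clic6 had an r of 0.98 and a rho of 1 over the 7 libraries (exact permutation p = 0.000198 for r, adjusted p = 0.00893). Clic6 and Otx2 had an r of 0.98 (exact permutation p = 0.000397, adjusted p = 0.00893), and Kl and Otx2 had an r of 0.96 (exact permutation p = 0.000992, adjusted p = 0.0143). For Kl, Clic6 and Otx2 the lowest of the 7 libraries were WT 3 and cGAS KO 2, both of low complexity. Ttr passed with Sostdc1 alone (r = 0.88, exact permutation p = 0.00952, adjusted p = 0.0476). Sostdc1 had 0 counts in cGAS KO 2 and WT 3, both of low complexity and the lowest libraries for Ttr. The r of Ttr and Sostdc1, and of the other pairs with Sostdc1, thus draws on libraries where Sostdc1 was not counted. Enpp2 and Slc4a5 were the genes that stood apart, with a median r with the other 9 of 0.23 and 0.20, against 0.78 for Kl. Ttr and Enpp2, the most abundant pair per length, had an r of 0.76 over 9 libraries (rho 0.45) and -0.32 over these 7. Over the 6 libraries not of low complexity, WT 1 among them, the median r was 0.96 and that of Ttr and Enpp2 was 0.93.

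**Figure D4:**
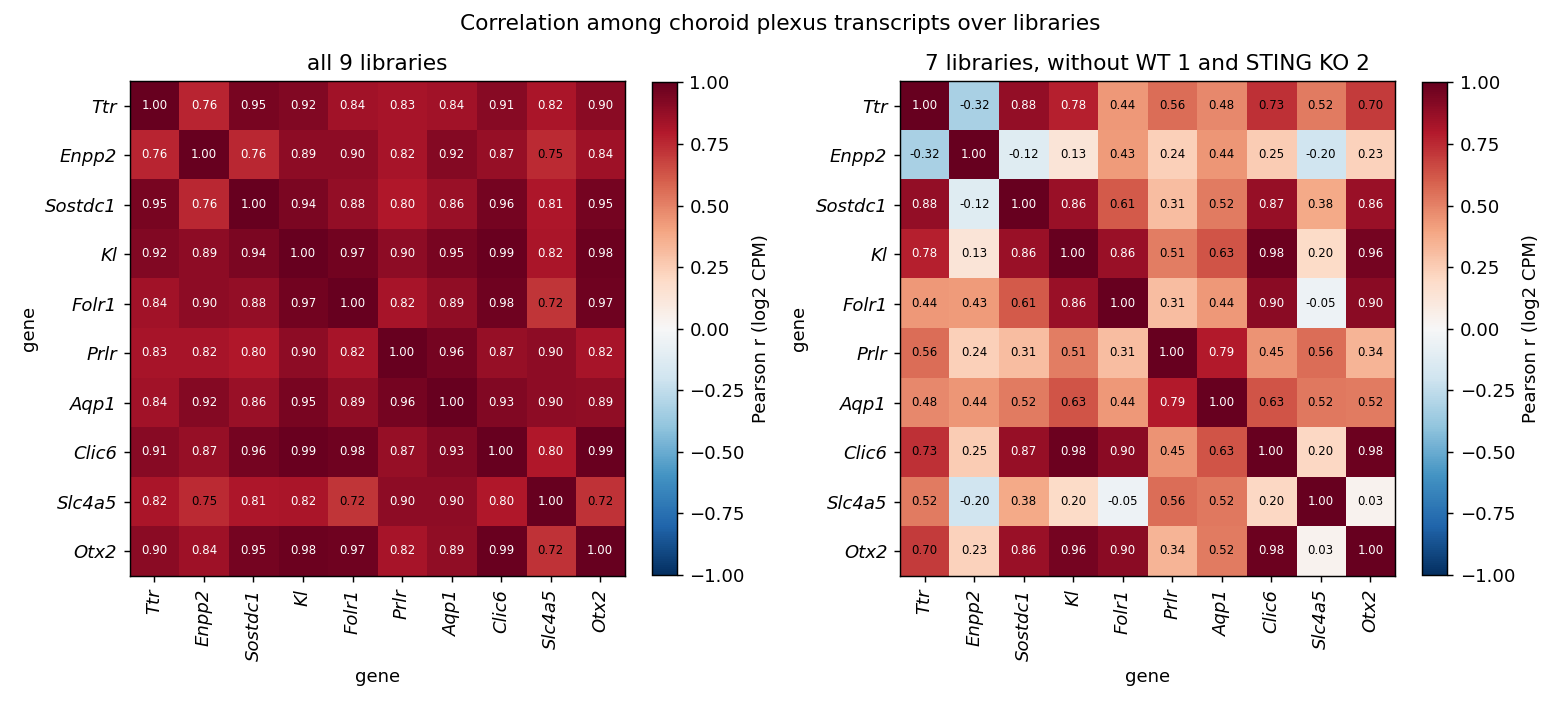
Pearson r of log2 CPM for each pair of the 10 genes (both axes: genes; colour and printed value: r) over all 9 libraries on the left and over 7 libraries, without WT 1 and STING KO 2, on the right. On the left the lowest r is 0.72, and on the right Enpp2 and Slc4a5 hold the 4 negative pairs while Kl, Clic6 and Otx2 keep an r of at least 0.96 with each other.

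Outside the choroid plexus lists, 10 of 17777 genes had an r over 0.9 with the mean log2 CPM of the 10 genes over 9 libraries, where the median gene had an r of 0.00 (-0.00084). The closest was Hfe, a regulator of iron uptake (r = 0.97), at 9.17 CPM in WT 1, 7.25 CPM in STING KO 2 and 2.79 to 4.65 CPM in the other 7. It was followed by Acss3, Dab2, Sept10, Gm44250, Hspb6, Zfp185, Slc37a2, Slco1c1 and Baiap2l1, with r from 0.96 to 0.92. Dab2, an adaptor of endocytosis, was at 21.3 CPM in WT 1, 22.8 CPM in STING KO 2 and 7.57 to 10.9 CPM in the other 7. Slco1c1, a thyroid hormone transporter, kept an r of 0.90 over the other 7 libraries, and Hspb6, a small heat shock protein, kept 0.93.

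The study's comparisons ask how the striatum differs when cGAS or STING is missing. For the choroid plexus genes none of them gave a difference beyond the spread between libraries. By edgeR's quasi-likelihood test 0 of the 10 passed an adjusted p of 0.05 in cGAS KO against WT, STING KO against WT or STING KO against cGAS KO, as did 0% of the 17821 genes tested. At an unadjusted p under 0.05, 361, 291 and 258 of the 17821 genes passed in these 3 comparisons and 0 of the 10, and DESeq2 called 1, 10 and 8 genes, 0 of the 10 among them. DESeq2 gave no p for Ttr, Folr1, Aqp1 and Prlr in any of the 3, since its outlier filter set them aside. The groups overlapped for each of the 10 genes in each comparison, where all cGAS KO libraries were above WT for 4.0% of genes tested and below for 4.0%, all STING KO libraries above WT for 3.40% and below for 3.67%, and above cGAS KO for 3.63% and below for 3.72%. Comparisons that share a group share its libraries and are not independent.

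In cGAS KO against WT the fitted fold change was negative for each of the 10 genes. Ttr was at 70.1 ± 83.7 CPM (SD, n = 3) in cGAS KO and 860.1 ± 1409 CPM (SD, n = 3) in WT, log2 fold change -3.62, SE 1.82 (edgeR unadjusted p = 0.0769, adjusted p = 0.9999). Enpp2 was at 318 ± 26.1 and 734 ± 785 CPM, log2 fold change -1.21, SE 0.69, and Kl at 10.95 ± 4.82 and 46.2 ± 66.5 CPM, log2 fold change -2.07, SE 1.22. In WT the SD exceeded the mean for 9 of the 10 genes, Clic6 being the exception at 36.0 ± 33.3 CPM. The median log2 fold change of the 10 was -2.34, against -0.01 for all genes tested. Without WT 1 it was 0.47, with 7 of the 10 positive and Aqp1, Slc4a5 and Prlr at -0.19, -0.19 and -0.31. The WT mean of Ttr was then 46.7 CPM, below that of cGAS KO, and its log2 fold change was 0.59. The other 34 choroid plexus genes had a median of -1.05, with 2 positive and 32 negative, and of 0.23 without WT 1.

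In STING KO against WT 9 of the 10 were negative, with Prlr at 0.18. Ttr was at 136 ± 161 CPM (SD, n = 3) in STING KO, log2 fold change to WT -2.66, SE 1.75 (edgeR unadjusted p = 0.161, adjusted p = 0.9999). Prlr had means of 18.7 ± 31.2 CPM in STING KO against 16.4 ± 22.6 in WT (log2 fold change 0.18, SE 1.53), and Slc4a5 at 8.17 ± 13.1 and 8.82 ± 12.9 CPM, log2 fold change -0.12, SE 1.59. The median of the 10 was -0.82. Here a high library lay on each side, and the median moved to 1.75 without WT 1, to -3.48 without STING KO 2 and to -0.13 without both, the last chosen after the data were seen. Prlr moved from 2.47 without WT 1 to -4.52 without STING KO 2. The other 34 choroid plexus genes had a median of -0.41, and of 0.69 without WT 1. Without STING KO 2 the filter kept 35 of that list, with a median of -1.05 (-1.045).

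In STING KO against cGAS KO, which uses no WT library for its means, each of the 10 was positive, with a median of 1.03. Prlr had the largest log2 fold change, 2.79 with an SE of 1.67 (edgeR unadjusted p = 0.127, adjusted p = 1), and Enpp2 the smallest, 0.23 with an SE of 0.68. Without STING KO 2 each of the 10 was negative, with a median of -0.66. Means of STING KO 1 and 3 were 43.3 CPM for Ttr, 7.12 CPM for Kl and 0.712 CPM for Prlr, against 70.1, 10.95 and 2.66 CPM over the cGAS KO libraries. Over the alternatives with a p, adjusted p-values of the 10 genes ranged from 0.773 to 1 in cGAS KO against WT, from 0.497 to 1 in STING KO against WT and from 0.926 to 1 in STING KO against cGAS KO (edgeR, DESeq2 or limma-voom).

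**Figure D5:**
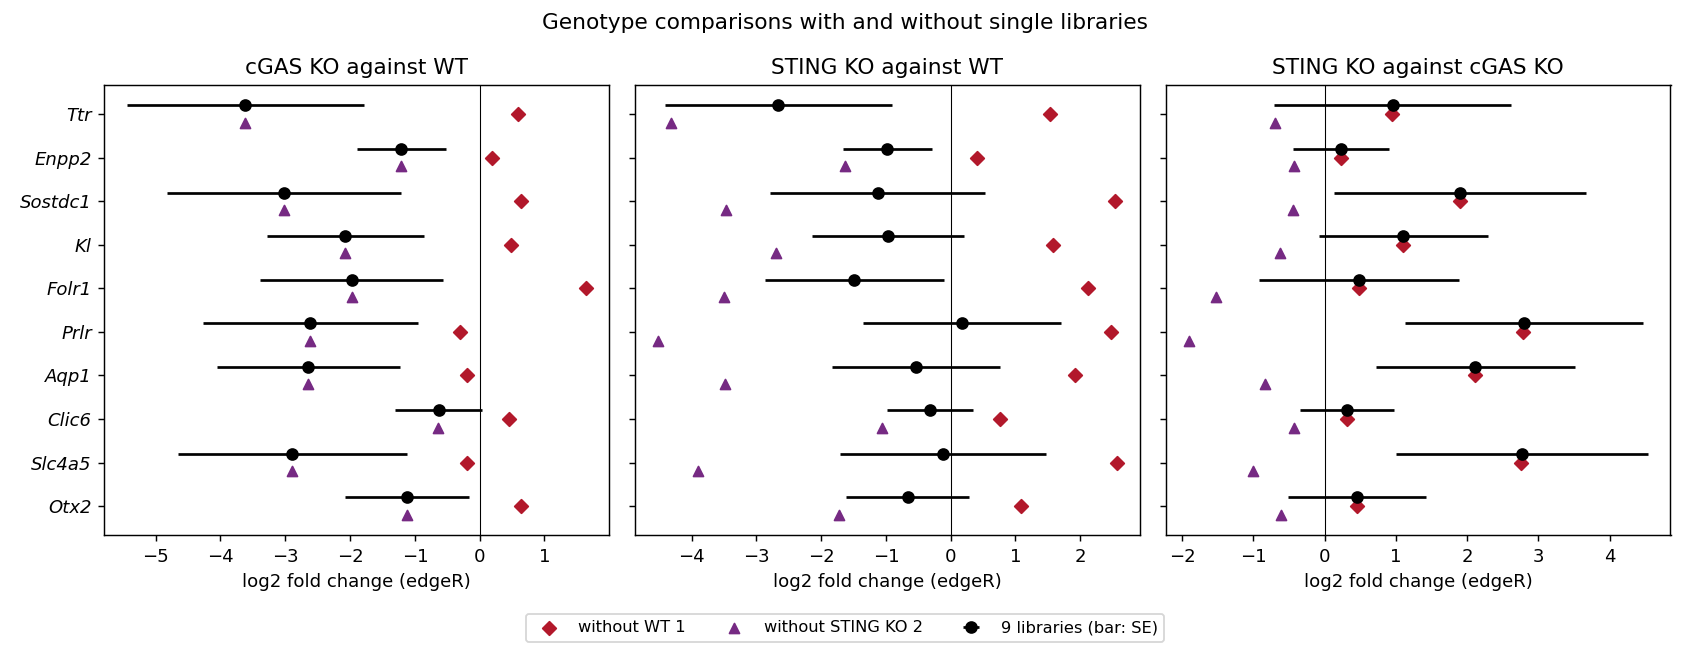
Log2 fold change (x axis, edgeR) of each of the 10 genes (y axis) in the 3 comparisons, as black points with bars of 1 SE for 9 libraries, red diamonds without WT 1 and purple triangles without STING KO 2. In STING KO against WT each red diamond lies to the right of 0 and each purple triangle to the left.

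Leaving out WT 1 lowered the WT mean of each of the 10 genes. It fell from 860.1 to 46.7 CPM for Ttr, from 734 to 281 CPM for Enpp2, from 46.2 to 7.84 CPM for Kl, from 7.07 to 0.563 CPM for Folr1 and from 16.4 to 3.35 CPM for Prlr. WT 1 held 77.7% of the CPM of Ttr summed over the 9 libraries, 27.98% of those of Clic6 and a median of 45.4% over the 10 genes. Leaving out STING KO 2 lowered the STING KO mean from 136 to 43.3 CPM for Ttr, from 372 to 236 CPM for Enpp2, from 23.7 to 7.12 CPM for Kl and from 18.7 to 0.712 CPM for Prlr. With both left out, the means of WT and STING KO were within 1.5-fold of each other for Ttr, Enpp2, Kl, Folr1, Clic6, Otx2 and Sostdc1, and WT was at 1.20, 1.39 and 3.35 CPM against 0.587, 0.587 and 0.712 CPM in STING KO for Aqp1, Slc4a5 and Prlr.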

How the data were processed

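Polyadenylated RNA from striatum was sequenced in 9 libraries as paired reads after Trizol extraction, per the labels' protocols. The submitters' processing notes name HISAT2 for alignment, featureCounts for counting and the build mm10, without versions, annotation release or strand setting. The authors deposited 1 table per library of whole-number counts by gene ID, which they left unnormalized as far as the values show. Symbols, positions and exon lengths come from GENCODE M21 (GRCm38). The 10 genes, the lists of other cell types and the tests were chosen with earlier results of these data known.

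Genotypes were compared by edgeR 4.0.16 under R 4.3.3 (TMM, filterByExpr, quasi-likelihood F test, 9 libraries in 1 fit, Benjamini-Hochberg adjustment over 17821 genes, threshold 0.05), after a check on simulated counts. In these simulated counts 5% to 10% of 2-fold changes and 73% to 74% of 4-fold changes were called. The changed genes had a mean of at least 5 CPM, above that of Folr1, Aqp1, Otx2 and Sostdc1. Levels are TMM-scaled CPM, log2 values use a prior count of 2, and RPKM is CPM per kilobase of exon. Standard errors were derived from each fold change and its F statistic. Differences to "the other 7" use their median. Correlations were tested by exact permutation over libraries and adjusted over 45 pairs. No 2 libraries of a group agreed within sampling noise.

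Named are the 10 genes, the 8 most abundant other choroid plexus genes, the 2 most abundant of each other list, the 10 genes of most similar pattern over 9 libraries and over the 8 without WT 1, and the 10 unlisted genes with the largest ratio of WT 1 to the highest other library. Items that this rule names and the text leaves out are not reported here. Alternatives were RLE scaling, DESeq2 1.42.0, limma-voom (limma 3.58.1), no count filter, only the 6 libraries compared, the replicate block, leaving out libraries, other prior counts and no TMM.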

Additional observations from a re-analysis of the deposited data

How the results depend on the processing

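Leaving out a single library turned the direction of most fold changes of the 10 genes. With each library left out in turn, the median log2 fold change of the 10 genes ranged from -2.86 to 0.47 for cGAS KO against WT, from -3.48 to 1.75 for STING KO against WT and from -0.66 to 1.75 in STING KO against cGAS KO, and the median r over the 45 pairs from 0.80 to 0.93. The range per gene in cGAS KO against WT was Ttr -5.22 to 0.59, Enpp2 -1.61 to 0.19, Sostdc1 -3.60 to 0.64, Kl -2.62 to 0.48, Folr1 -2.54 to 1.64, Clic6 -1.06 to 0.45, Otx2 -1.64 to 0.64. The range per gene in STING KO against WT was Ttr -4.31 to 1.53, Enpp2 -1.64 to 0.41, Sostdc1 -3.47 to 2.54, Kl -2.70 to 1.58, Folr1 -3.51 to 2.13, Prlr -4.52 to 2.47, Aqp1 -3.48 to 1.92, Clic6 -1.07 to 0.76, Slc4a5 -3.90 to 2.57, Otx2 -1.73 to 1.09. The range per gene in STING KO against cGAS KO was Ttr -0.70 to 2.55, Enpp2 -0.42 to 0.52, Sostdc1 -0.45 to 2.38, Kl -0.62 to 1.55, Folr1 -1.53 to 0.96, Prlr -1.91 to 3.62, Aqp1 -0.84 to 2.63, Clic6 -0.43 to 0.57, Slc4a5 -1.005 to 3.79, Otx2 -0.61 to 0.78. In cGAS KO against WT, Aqp1 (-3.16 to -0.19), Slc4a5 (-3.92 to -0.19) and Prlr (-3.45 to -0.31) did not turn, though leaving out WT 1 brought each near 0. Directions turned when WT 1 or STING KO 2 was left out, and in STING KO against WT also for Slc4a5 without STING KO 1 or 3 and for Prlr without WT 2 or 3.

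With the 3 libraries of low complexity left out, the median was -4.03 for STING KO against WT and -1.05 (-1.054) for STING KO against cGAS KO. The median r, with WT 1 still included, was 0.96. Fold changes that turned there were Prlr -5.03 in STING KO against WT and, for STING KO against cGAS KO, Ttr -1.26, Enpp2 -0.37, Sostdc1 -1.01, Kl -0.94, Folr1 -1.80, Prlr -2.35, Aqp1 -1.10, Clic6 -0.66, Slc4a5 -1.56 and Otx2 -0.89. With WT 1 left out as well, which leaves WT 2 alone in its group and assumes that it varies like the libraries of the other groups, the median was 0.25 for cGAS KO against WT and -1.06 (-1.056) for STING KO against cGAS KO. The fold changes that turned were Ttr 0.39, Enpp2 0.053, Sostdc1 0.25, Kl 0.20, Folr1 1.24, Clic6 0.26, Slc4a5 1.56 and Otx2 0.25 in the first, Prlr -2.44 in STING KO against WT, and Ttr -1.26, Enpp2 -0.37, Sostdc1 -1.01, Kl -0.94, Folr1 -1.80, Prlr -2.35, Aqp1 -1.10, Clic6 -0.66, Slc4a5 -1.56 and Otx2 -0.89 in the last. Without both WT 1 and STING KO 2, an alternative chosen after seeing the data, the median was 0.46 (0.4645) for cGAS KO against WT and the median r 0.52. The fold changes that turned were Ttr 0.59, Enpp2 0.18, Sostdc1 0.64, Kl 0.48, Folr1 1.64, Clic6 0.45 and Otx2 0.63 for cGAS KO against WT, Sostdc1 0.20, Folr1 0.11, Prlr -2.22, Clic6 0.018 and Otx2 0.027 for STING KO against WT, and Ttr -0.70, Enpp2 -0.42, Sostdc1 -0.44, Kl -0.62, Folr1 -1.53, Prlr -1.90, Aqp1 -0.83, Clic6 -0.43, Slc4a5 -1.001 and Otx2 -0.61 in STING KO against cGAS KO. By limma-voom the medians were -1.30 in cGAS KO against WT, -0.66 for STING KO against WT and 0.33 for STING KO against cGAS KO. Under it Sostdc1 0.077 and Prlr -1.68 turned in STING KO against WT, as did Folr1 -0.48 in STING KO against cGAS KO.

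The labels do not say that the numbers of the replicates pair the libraries. Correlations of deviations from the group means between libraries of the same number ranged from -0.447 to 0.502. Between libraries of other groups and unlike numbers they ranged from -0.516 to 0.533. Across groups, libraries of low complexity correlated positively with each other and negatively with the rest, so these correlations cannot decide whether the numbers pair libraries. With the replicate block the medians were -1.32 (-1.315), -0.23 and 1.09, Sostdc1 0.18 and Prlr -0.22 turned in STING KO against WT, and 0 genes were called in each comparison, as without it. 

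Across the alternatives 0 of the 10 genes were called. Over all genes edgeR called 0, 0 and 0, DESeq2 1, 10 and 8, edgeR without a count filter 0, 4 and 4, and edgeR without the 3 libraries of low complexity 0, 4 and 3. The cause was not tested beyond leaving libraries out. Sostdc1, Folr1, Aqp1 and Slc4a5 had at most 26, 42, 29 and 37 counts in the libraries other than WT 1 and STING KO 2, which limits the precision of their levels there.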

Other observations

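Among genes in none of the lists, the one that stood out most in WT 1 was the noncoding 2900040C04Rik, at 4.70 CPM in WT 1, 0 CPM in STING KO 2 and 0 to 0.928 CPM in the other 7 libraries. Its 459 bases of exon are fewer than those of the 10 choroid plexus genes. It was followed by Pcolce, an enhancer of procollagen processing, at 11.5 CPM in WT 1, 3.49 CPM in STING KO 2 and 0.566 to 4.53 CPM elsewhere. A2m, a protease inhibitor, was at 9.08, 3.62 and 1.34 to 3.41 CPM in the same order, Epn3, an epsin of endocytosis, at 8.72, 3.49 and 0.604 to 2.55 CPM, and Sema3b, a secreted semaphorin, at 7.72, 3.56 and 0.528 to 3.30 CPM. Tjp3, Rbm47, Slc39a4, Scara5 and Gpx8 completed the 10 largest ratios, between 2.02-fold and 2.43-fold above the highest other library with a prior count of 2. Of the 10, A2m, Epn3, Rbm47 and Sema3b were next highest in STING KO 2.

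Over the 8 libraries without WT 1, the genes most like the mean of the 10 choroid plexus genes were Irgm1, an interferon-induced GTPase (r = 0.97), Chst5, Fblim1, Cmtm6, Hfe, Sept10, Adcy4, Rad51d, Dab2 and Proca1. Hfe, Sept10 and Dab2 were also among the 10 closest over 9 libraries. Chst5 reached 2.51 CPM in STING KO 2, against 0.755 to 1.11 CPM in the other 7, and its 0.768 CPM in WT 1 lay within that range. Proca1 reached 6.27 CPM in STING KO 2, and its 1.90 CPM in WT 1 lay within the 0.708 to 2.10 CPM of the other 7. Those 2 genes were therefore high in STING KO 2 and not in WT 1.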
